A study of Rattus norvegicus with 20 samples.

Results

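The precursors described here are 5 rat miRNA hairpins, rno-mir-764, rno-mir-325, rno-mir-383, rno-mir-135a and rno-mir-1298, grouped as low-abundance precursors with most of their reads in brain. These 5 precursors, of 444 in the precursor list, were chosen by their levels in brain against the other tissues, so those levels are given here as a description with no test. Their 8 listed mature arms, of 577 mature miRNAs, were followed with them. Small RNA was sequenced from 3 brain hemispheres, each its own library, from 3 serum samples, and from 14 other tissues that were each a pool of 3 rats and a single library. The animals were male Long Evans rats of postnatal day 35 that received no treatment, and hemispheres, pools and serum were taken from 1 cohort of 3 rats, so that the groups share animals. The study made this survey to find which tissues could be the source of miRNAs measured in serum.

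A miRNA is transcribed as part of a longer RNA and cut to a hairpin, the precursor, from whose 5p and 3p arms the mature strands of the miRNA are released. The mature strand guides the silencing complex to messenger RNAs that pair with its seed, a short stretch near its 5′ end. Many miRNAs sit in introns of protein-coding genes or in clusters and can be transcribed with them. rno-mir-764 and rno-mir-1298 lie within the span of Htr2c, a serotonin receptor gene expressed in neurons and, at high levels, in the choroid plexus. miR-135a has been linked to the serotonin system of the brain, where the serotonin transporter is among its reported targets.

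The mature sequences are shown because the arms are counted separately below. They are RefSeq sequences of assembly GRCr8, written 5′ to 3′ with the seed, bases 2 to 8, in capitals.
miR-764-3p: gAGGAGGCcauaguggcaacugu
miR-1298: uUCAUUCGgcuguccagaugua
miR-325-5p: cCUAGUAGgugcucaguaagugu
miR-325-3p: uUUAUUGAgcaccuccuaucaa
miR-135a-5p: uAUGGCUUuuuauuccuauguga
miR-135a-3p: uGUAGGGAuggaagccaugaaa
miR-135b-5p: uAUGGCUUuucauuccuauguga
The last is no member and is shown because miR-135a-5p and miR-135b-5p share the seed AUGGCUU and differ by the single substitution U11C, counted from the 5′ end with the miR-135a-5p base first. Reads of these sister miRNAs could therefore be split between them in the counting, and the values of both are uncertain to that extent. The seeds of the other 5 member arms shown were carried by no other of the 694 rat mature sequences in the table, and no 2 of the members shown shared a seed.

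Hairpins of mir-764, mir-1298, mir-325 and mir-135a are shown, with the annotated mature arms in capitals, because they show which part of the precursor the mature counts cover.
mir-764: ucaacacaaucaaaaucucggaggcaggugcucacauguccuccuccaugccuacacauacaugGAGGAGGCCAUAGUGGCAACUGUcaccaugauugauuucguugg
mir-1298: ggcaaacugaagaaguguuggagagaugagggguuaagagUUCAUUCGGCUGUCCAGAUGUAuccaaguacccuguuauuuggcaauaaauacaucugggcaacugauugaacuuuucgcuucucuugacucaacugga
mir-325: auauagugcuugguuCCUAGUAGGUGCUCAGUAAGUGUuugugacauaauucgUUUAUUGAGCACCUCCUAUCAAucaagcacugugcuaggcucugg
mir-135a: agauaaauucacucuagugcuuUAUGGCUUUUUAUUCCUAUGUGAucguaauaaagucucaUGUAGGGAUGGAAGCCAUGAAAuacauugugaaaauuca
In GRCr8 these hairpins lie at chrX:115490638-115490745 on the plus strand (mir-764), chrX:115556947-115557085 on the plus strand (mir-1298), chrX:74523514-74523611 on the minus strand (mir-325) and chr7:28499166-28499265 on the minus strand (mir-135a). The reads themselves were aligned by the authors to the older Rn5 build. The annotation placed mir-383 on chromosome 16 within the span of Sgcz, a sarcoglycan gene. mir-325 and mir-135a lay in no protein-coding span, mir-325 next to Fgf16 on the X chromosome and mir-135a next to Nedd1. On the X chromosome were 3 of the 5 members, against 58 of the 421 precursors that could be matched by name (13.8%). Among the 3, mir-764 and mir-1298 share the span of Htr2c, so these are not independent placements and nothing is read from the count.

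Levels are RPM, the reads of a precursor scaled to a common total of precursor reads in each library. The hemispheres held 388275 to 1204552 precursor reads, the pools 162080 (testes) to 3685761 (large intestine), and the serum libraries only 7556 to 10862. The brain libraries matched their label, with the 6 brain marker precursors (the mir-124 and mir-9a copies) summing to between 35902 and 43900 RPM, against 154 RPM or less in the pools. The pool labelled pancreas did not match its label well: mir-122, the liver miRNA, stood at 14862 RPM there and at 14726 RPM in liver, and 2 of 3 pancreas markers were at 0. That pool held no read of any member, and the count of members with every hemisphere above every pool was 5 with it and 5 without it. In bulk tissue, fewer cells of a type and less RNA per cell cannot be told apart.

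**Figure D1:**
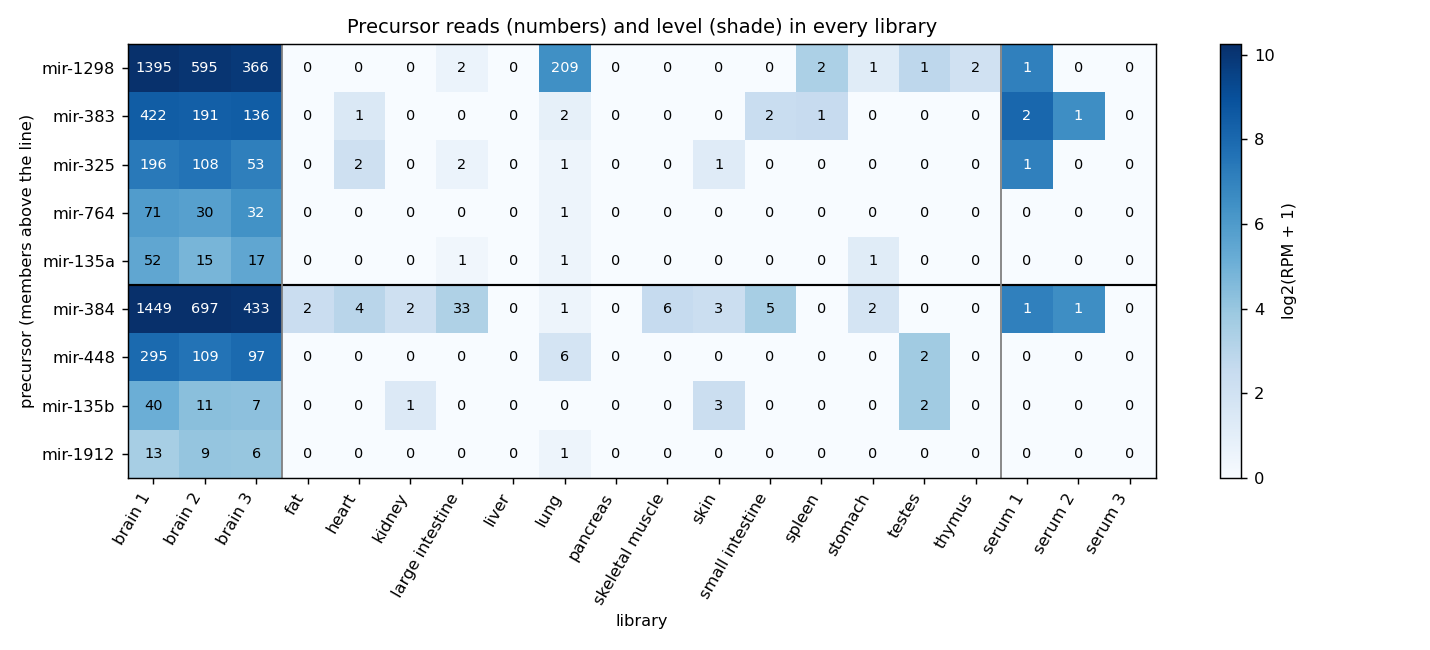
Reads of the 5 member precursors (above the line) and 4 neighbour or family precursors (below it) in each of the 20 libraries; the number in a cell is the read count and the shade is log2(RPM + 1). Member reads fill the 3 brain columns, and apart from 209 mir-1298 reads in lung no pool holds more than 2 reads of a member.

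The brain signal of the 5 precursors stood in every hemisphere above the level in every pool, for 5 of 5 members. Among all 295 precursors that passed the filter on low counts, 107 (36.3%) had this pattern, and since the members were picked on this contrast nothing is read from the difference. All 5 members passed the filter, 4 of them through the hemispheres alone. mir-1298 also had enough counts in lung, but none of the 5 could have passed without the hemispheres. Brain held between 90.7% (mir-1298) and 99.4% (mir-764) of a member's RPM summed over the 15 tissues, against a median of 14.1% over the 295 precursors. A brain share of 95% or more was seen for 18 of the 295, and 4 of the members were among them. The label "low-abundance" held less well for some members than for others. The median brain level over the 295 precursors was 198 RPM; mir-325, mir-764 and mir-135a were under it, at ranks 155, 198 and 222 from the highest, whereas mir-383 (rank 128) and mir-1298 (rank 83) were above it.

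Starting with the precursors in the Htr2c span, mir-1298 had 1395, 595 and 366 reads in the 3 hemispheres, which is 1158, 1043 and 943 RPM (mean 1048 ± 108 RPM, SD, n = 3). In lung it had 209 reads or 87.4 RPM (95% Wilson interval 76.3 to 100.1 RPM). It was the only member with more than 2 reads in any pool. The other pool reads were 2 in large intestine, 2 in spleen, 2 in thymus, 1 in stomach and 1 in testes, and 8 pools had none. The brain mean was 12.0 times the lung level (10.5 to 13.7 from the counting interval of the lung value alone). That ratio depended on the scaling of the libraries. The log2 difference between brain and the highest pool was taken with 1 RPM added to each level. For mir-1298 it was 3.57 on library totals, 3.10 with TMM and 2.15 with DESeq2 size factors. On library totals, mir-1298 fitted the name brain-restricted least of the 5 members. With TMM and with size factors the smallest log2 difference among the members was that of mir-135a (2.48 and 2.11). The added 1 RPM lowers this difference most for members with low levels. With size factors mir-135a (2.11) and mir-1298 (2.15) were close, so their order there depends on the added 1 RPM and is not read.

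The lung reads of mir-1298 were set beside marker precursors of other cell types in the same pool. The 6 brain markers summed to 5.85 RPM in lung with 3 of 6 at 0, so brain-derived markers were near 0 there. The list for choroid plexus and ciliated cells (mir-204, mir-211, mir-449a and mir-449c) summed to 1142 RPM in lung with 4 of 4 detected, to 4940 to 6623 RPM in the hemispheres and to 32262 RPM in testes. Skin (1565 RPM) and spleen (1228 RPM) also stood above lung, and testes, skin and spleen held 1, 0 and 2 reads of mir-1298. The list was made up differently in each tissue, so its sums are not alike in kind. mir-204, a miRNA abundant in choroid plexus, was at 4858 to 6535 RPM in the hemispheres and 104 RPM in lung. mir-449a, a miRNA of multiciliated cells, was at 54.1 to 59.6 RPM in the hemispheres, 800 RPM in lung and 27295 RPM in testes. The part of these cells in the mir-1298 values was not tested.

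mir-764, the other member in the Htr2c span, had 71, 30 and 32 reads in the hemispheres, or 58.9, 52.6 and 82.4 RPM (mean 64.6 ± 15.7 RPM, SD, n = 3). Its single read outside brain was in lung (0.418 RPM), and 13 pools had none. The brain mean was 155 times that lung level, but with 1 read behind it the interval runs from 27.3 to 876.

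The same gene span holds mir-448 and mir-1912, which were listed for their position. mir-448 had 295, 109 and 97 reads in the hemispheres (mean 229 ± 32.6 RPM, SD, n = 3), with 6 reads in lung and 2 in testes. mir-1912 was near the detection limit, with 13, 9 and 6 reads in the hemispheres and 1 in lung, and was too low for the test. Over the 3018 brain reads of these 4 precursors, mir-1298 held 78.1%, mir-448 16.6%, mir-764 4.41% and mir-1912 0.93%. In each hemisphere they ranked in that order. In lung, mir-1298 held 96.3% of their 217 reads. Had the brain proportions to mir-1298 applied in lung, 44.4 reads of mir-448 and 11.8 of mir-764 would have been seen, and 6 and 1 were. The lung values come from a single pooled library with no replicate check.

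mir-325 had 196, 108 and 53 reads in the hemispheres, or 163, 189 and 137 RPM (mean 163 ± 26.4 RPM, SD, n = 3). Outside brain it had 6 reads, 2 in heart (3.47 RPM, its highest pool), 2 in large intestine, 1 in lung and 1 in skin. The lowest hemisphere stood far above every pool, and the brain mean was 46.9 times the heart level (12.9 to 171). mir-384, which the annotation placed between the same protein-coding genes as mir-325 on the X chromosome, was more abundant. It had 1449, 697 and 433 reads in the hemispheres (mean 1180 ± 56.8 RPM, SD, n = 3) and 58 reads over 9 pools, the most in large intestine (33 reads).

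mir-383 had 422, 191 and 136 reads in the hemispheres, or 350, 335 and 350 RPM (mean 345 ± 9.01 RPM, SD, n = 3). By its mature arms the brain level was only 6.10 RPM, and the log2 difference to the highest pool 2.83 in place of 5.93, since few of its precursor reads were counted under an arm. Its 6 pool reads were 2 in lung, 2 in small intestine, 1 in heart and 1 in spleen. The highest pool level, 4.69 RPM in spleen, rests on 1 read, and the brain mean by the precursor was 73.6 times it (13.0 to 417).

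mir-135a was the lowest member by precursor reads, with 52, 15 and 17 reads or 43.2, 26.3 and 43.8 RPM (mean 37.7 ± 9.93 RPM, SD, n = 3). It had 1 read each in large intestine, lung and stomach, the last giving the highest pool level of 1.26 RPM. The brain mean was 29.98 times that level (5.29 to 170). The log2 difference between brain and the highest pool, again with 1 RPM added to each level, depended on the scaling for these members too. On library totals, with TMM and with DESeq2 size factors it was 4.10, 2.48 and 2.11 for mir-135a. In the same order it was 5.93, 4.32 and 3.64 for mir-383 and 5.20, 4.23 and 3.58 for mir-325. For mir-764 it was 5.53, 4.73 and 4.10. The mir-135a family member mir-135b had 40, 11 and 7 reads in the hemispheres (mean 23.5 ± 8.43 RPM, SD, n = 3) and 12.3 RPM in testes, from 2 reads. Brain held 56.7% of the mir-135b RPM summed over tissues, against 95.1% for mir-135a. The difference between the family members was not tested, since mir-135a was selected for its brain share and mir-135b was too low for the filter.

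**Figure D2:**
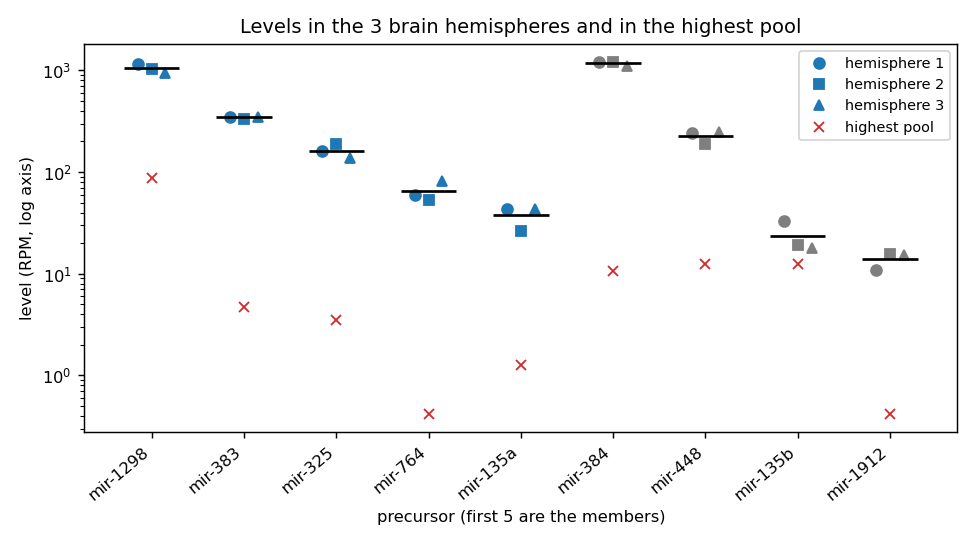
Level in RPM (log axis) of each precursor in hemispheres 1, 2 and 3 (points), their mean (black line) and the level in the highest pool (cross); blue marks the members and grey the neighbours. The members keep 1 order in all hemispheres, from mir-1298 at 943 to 1158 RPM down to mir-135a at 26.3 to 43.8 RPM.

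The order mir-1298, mir-383, mir-325, mir-764, mir-135a from highest to lowest was seen in each hemisphere, and no neighbours in that order overlapped over the 3 libraries. This is the order by precursor reads. By the mature arms mir-383, at 6.10 RPM, would be the lowest, under mir-135a at 33.2 RPM. The read depth was enough to have seen brain-like levels elsewhere. The shallowest pool, testes, would have held 170 reads of mir-1298, 55.9 of mir-383, 26.4 of mir-325, 10.5 of mir-764 and 6.12 of mir-135a at the brain level, and held 1, 0, 0, 0 and 0. A count of 0 there still allows up to 18.5 RPM (3 reads), so lower levels in testes were not detectable at this depth. In pools of greater depth this limit was lower, down to 0.814 RPM in large intestine.

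The spread between hemispheres differed among the members. The coefficient of variation was 2.61% for mir-383, 10.3% for mir-1298, 16.2% for mir-325, 24.3% for mir-764 and 26.3% for mir-135a, against a median of 16.3% over 181 precursors with 30 to 3000 brain reads. As a multiple of the variance that counting alone would give, the spread was 0.148 for mir-383, 1.57 for mir-135a, 1.82 for mir-764, 1.99 for mir-325 and 7.02 for mir-1298, with a median of 2.15 over the 181. Of the members, mir-1298 had the highest ratio, and also the most brain reads (2356, against 84 to 749 for the others). At a given coefficient of variation this ratio grows with the number of reads, so it does not rank the members by relative spread. These ratios rest on 3 libraries each.

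Brain was compared with the 14 pools by edgeR's quasi-likelihood test over all 295 precursors, which called 71 (24.1%) higher in brain and 55 lower. Of the 6 names in the neighbour and family list, drawn up by position and family, 4 were found and 2 passed the filter. mir-448 was fitted 7.31 higher in brain on the log2 scale (SE 0.94) and mir-384 6.85 higher (SE 0.90). mir-448 reached the count minimum in the hemispheres alone and mir-384 in the hemispheres and large intestine, so both entered the test because brain was high. Their differences are given as a description with no p, and nothing is read from them against the 24.1%. A wider list of 26 miRNA precursors known from brain gave the setting. In it 25 were found and 21 tested, 12 of which could not have passed the filter without the hemispheres, so its calls (19 higher in brain and 0 lower by edgeR) are no independent sign of direction. The name not matched, mir-598, is among the precursors as mir-598-1 (90.8 RPM in brain, brain share 74.7%) and mir-598-2 (77.0 RPM, 75.7%). Neither copy enters the counts or medians of this brain list. The median brain level of the 25 was 956 RPM and their median brain share 97.4%, and the members' medians were 163 RPM and 96.6%. These medians are not of like sets, since the 25 include precursors too low for the filter, which every member passed. The level (1048 RPM) and brain share (90.7%) of mir-1298 are therefore not ranked against the list.

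The precursors with the most similar tissue pattern were found by Pearson's r of log2(RPM + 1) over the 15 tissues. For mir-764 they were mir-3543-1 (r = 0.997) and mir-124-3 (r = 0.996), and for mir-135a mir-137 (r = 0.992) and mir-124-2 (r = 0.990). mir-325 was closest to mir-346 (r = 0.982) and mir-383 to mir-764 (r = 0.917). mir-1298 was closest to mir-92b (r = 0.900), which was also highest in brain (3523 RPM) and then in lung (745 RPM). All these values share the same 15 points, of which brain is the far one, so a high r mainly says that brain was high and the pools near 0. Brain first and lung second was the order of 12 of the 295 precursors, mir-764 and mir-1298 among them. For mir-764 this order rests on 1 read in lung (0.418 RPM), its only read outside brain.

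In serum the members had 5 reads in all, out of 26348 precursor reads over the 3 libraries. mir-383 had 2, 1 and 0 reads in serum replicates 1, 2 and 3, mir-325 had 1, 0 and 0, and mir-1298 had 1, 0 and 0. mir-764 and mir-135a had none. At the brain level the 3 serum libraries together would have held 27.6 reads of mir-1298, 9.09 of mir-383, 4.29 of mir-325, 1.70 of mir-764 and 0.995 of mir-135a. For mir-1298 the 1 read seen, 38.0 RPM (95% Wilson interval 6.70 to 215 RPM), was well under the brain mean of 1048 RPM. The 3 reads of mir-383, 114 RPM, had an interval of 38.7 to 335 RPM whose upper end was just under the brain mean of 345 RPM, and the interval for mir-325, 6.70 to 215 RPM, included its brain mean of 163 RPM. For mir-764 and mir-135a a count of 0 allows up to 114 RPM, more than their brain levels, so a serum level as high as that in brain was not detectable at this depth. Of the 5 reads, 4 were in serum replicate 1, and without it the count was 1. Intervals and limits cover counting error only, as the reads carry no molecular identifiers.

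**Figure D3:**
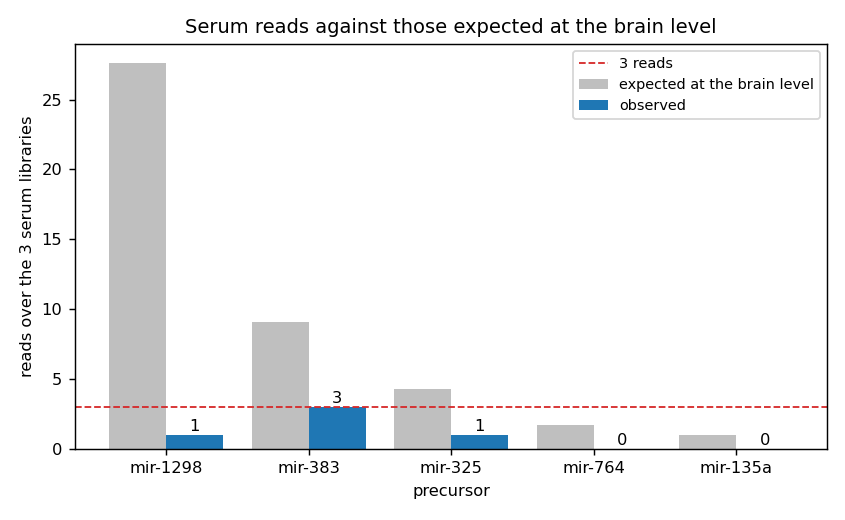
Reads of each member summed over the 3 serum libraries (blue, with the count) beside the reads expected there at the mean brain level (grey); the dashed line is 3 reads. The gap is wide for mir-1298, with 1 read against 27.6, while fewer than 3 reads were expected for mir-764 and mir-135a.

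The mature counts showed which arm of each hairpin the reads came from, a measure that did not enter the choice of the members. Most precursor reads of 3 members in the hemispheres were also counted under a listed mature arm. The share was 97.5% for mir-325 (348 of 357 reads), 96.2% for mir-764 (128 of 133, with only its 3p arm listed) and 87.4% for mir-1298 (2058 of 2356, with a single mature miRNA listed). For mir-1298 in lung it was 92.3% (193 of 209). For mir-135a it was 70.2% (59 of 84). mir-383 stood apart, with only 8 of its 749 precursor reads counted under its arms, 1.07% (95% Wilson interval 0.542 to 2.09%). Over 136 precursors that have both arms listed, no copy number in their name and at least 30 brain reads, the median share was 76.8%, 8 were under 3%, and mir-383 was the 2nd lowest. The cause was not tested.

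**Figure D4:**
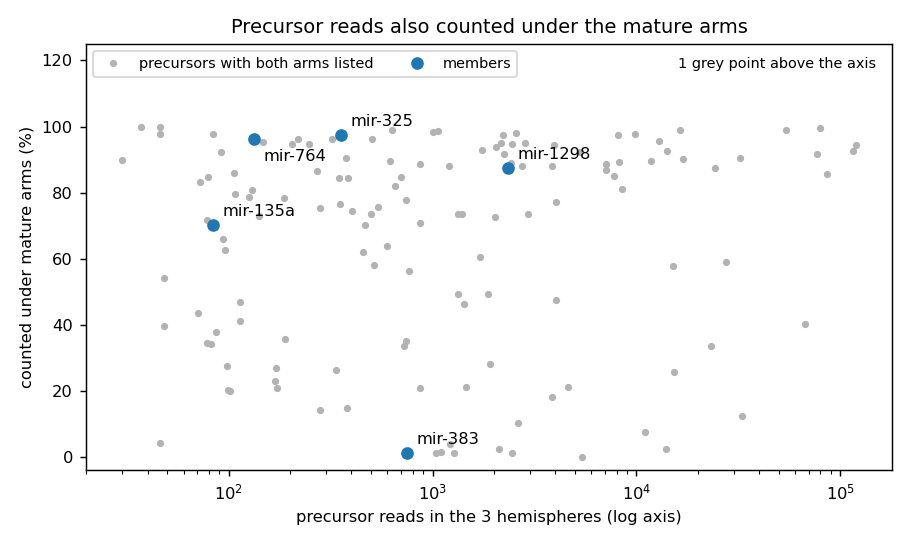
Percent of a precursor's brain reads that were also counted under its mature arms, against its reads in the 3 hemispheres (log axis); blue points are the members and grey points the 136 precursors with both arms listed, 1 of which, at over 100%, is above the axis. mir-383 lies at 1.07%, mir-135a at 70.2% and the other members at 87.4% or more.

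Over the 3 hemispheres together, miR-325 gave both strands in like amounts, though the share varied between hemispheres. Its 5p and 3p arms had 85 and 103 reads in hemisphere 1, 61 and 46 in hemisphere 2, and 16 and 37 in hemisphere 3. The 5p share was 45.2%, 57.0% and 30.2%, and 46.6% in all. The 5p arm was the larger in hemisphere 2 and the smaller in the others. The difference between these libraries did not pass Fisher's exact test after adjustment over 115 miRNAs (p = 0.0049, adjusted p = 0.057, two-sided). In this test 9 of the 115 miRNAs (7.83%) were called, none of them a member. It was called (adjusted p = 0.049 by the same exact test) with a minimum of 30 reads, and stayed over the threshold (adjusted p = 0.079, exact test) with a minimum of 1. The 5p arm of miR-325 supplied both of its heart reads, and the 3p arm its reads in large intestine, lung, skin and serum.

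Of the miR-135a reads counted under an arm, most were on the 3p arm. Any 5p reads counted under miR-135b-5p are left out, as are 25 of the 84 brain precursor reads of mir-135a, which fell under neither arm. These 25 reads outnumber the 13 counted as 5p. The 5p and 3p arms had 6 and 28, 3 and 7, and 4 and 11 reads in hemispheres 1, 2 and 3, a 5p share of 22.0% over all (95% Wilson interval 13.4 to 34.1%). A difference between hemispheres did not pass Fisher's exact test (p = 0.52, adjusted p = 0.93, two-sided), with few reads behind each share. All 3 of its pool reads were 3p. The few arm reads of miR-383 were 7 from the 5p arm and 1 from the 3p arm, too few for the test. The neighbour miR-384 was read from its 5p arm (2305 of 2527 reads) and miR-448 from its 3p arm (366 of 369), and neither passed the test between hemispheres (adjusted p = 0.15 and 0.70, exact test). Beside miR-384, whose reads were 91.2% 5p, its neighbour miR-325 at 46.6% was the more even in arm use.

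**Figure D5:**
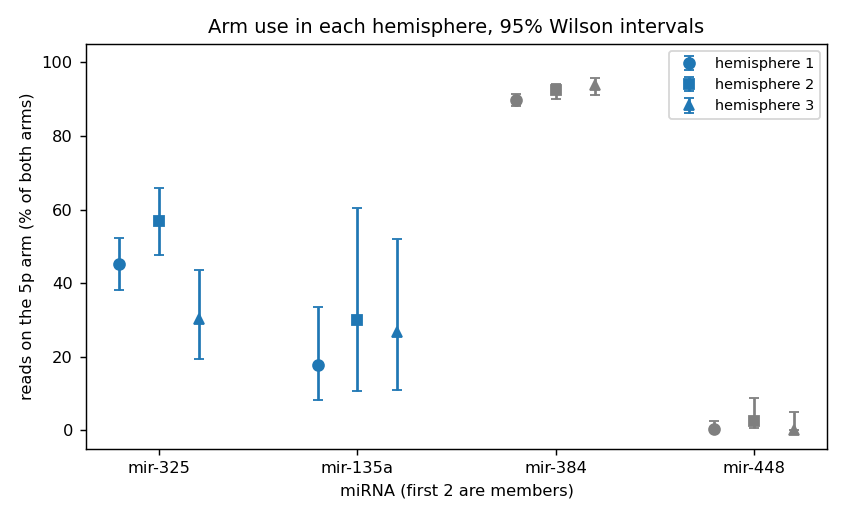
Percent of arm reads on the 5p arm in hemispheres 1, 2 and 3 with 95% Wilson intervals. The members miR-325 and miR-135a are blue, and miR-384 and miR-448, from the neighbour and family list, are grey. miR-325 ranges from 30.2 to 57.0%, while miR-384 lies near the top and miR-448 near 0.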

How the data were processed

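Libraries were made by the authors (Illumina TruSeq kit for small RNA, MiSeq sequencer), who trimmed low-quality bases, aligned the reads to Rn5 with Bowtie in Partek software and counted them against miRBase and RefSeq. The values the authors deposited are estimated counts (expected counts), not normalized, for 1409 features per library: 388 RefSeq, 444 miRBase precursor and 577 mature. A read can count once in every annotation, so RPM was taken within an annotation.

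The 5 members and the lists were chosen with earlier results of these data known. Named precursors were the members, their neighbours and family, the brain list, and for each member the 2 precursors of most similar pattern. Counts were rounded, and precursors reaching 10 counts in 3 or more of the 17 tissue libraries were tested with edgeR 4.0.16 (R 4.3.3, TMM, quasi-likelihood, Benjamini-Hochberg, threshold 0.05). The hemispheres are 1 tissue, so these p-values can be too small. DESeq2 1.42.0 was an alternative. Arm use was tested with Fisher's exact test (SciPy 1.17.1 for intervals) on miRNAs with at least 10 arm reads in every hemisphere; over 5000 reads a chi-square test was used. It compares these libraries only. The procedures were tested on simulated counts. Wilson intervals are at 95%, and a count of 0 was taken to allow 3 reads.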

Additional observations from a re-analysis of the deposited data

How the results depend on the processing

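The count of members with every hemisphere above every pool was 5 under every alternative run. By the mature arms this says nothing for mir-383. Its 2, 2 and 4 arm reads in the hemispheres lie under what a count of 0 allows in the shallow pools. The same limit holds for mir-135a in hemisphere 2, where its level from 10 arm reads lies under that allowed in testes and pancreas. The median brain level of the 5 members, 163 RPM on library totals, was 85.1 RPM with TMM, 56.2 RPM with DESeq2 size factors and 73.0 RPM by the mature arms (150 to 176 RPM with a hemisphere left out). TMM moved all tested precursors in brain by a median of -0.93 and size factors by -1.51 on the log2 scale. The median log2 difference between brain and the highest pool was 5.20 with a pseudocount of 1 RPM. It was 4.23 with TMM, 3.58 with size factors and 3.81 by the mature arms. With pseudocounts of 0.1 and 10 RPM it was 5.51 and 3.44. Without lung, an alternative chosen after seeing the data, it was 5.93. With a hemisphere left out it was 5.07 to 5.31. edgeR's 71 higher and 55 lower precursors (56.3% of calls higher) became 69 and 119 with DESeq2 (36.7%) and 52 and 82 with size factors in edgeR (38.8%). With a hemisphere left out, 24 to 26 were higher and 14 to 16 lower, over fewer tested precursors. The 5 serum reads were 2 by the mature arms and 1 to 5 with a serum library left out, a check chosen after seeing the data. Depth limits serum most. No paired analysis was possible because the pools carry no replicate number, and the member reads in serum, whose replicate numbers are shared with brain, were too few for a test and come from none.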
